A study of Mus musculus with 2 samples.

Results

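The genes described here are 28 genes of cholesterol synthesis and its control, chosen by name from the pathway, out of 32285 genes listed in the single-cell count tables of 4T1 tumours. The 4T1 line is a mouse mammary carcinoma line used as a model of triple-negative breast cancer, and its cells had been implanted in Matrigel in the mammary fat pad. Mice given β-elemene, a plant sesquiterpene, at 30 mg/kg into the abdomen each day were set against vehicle mice given normal saline, and tumours of both were taken after 18 days. Per its title, the study asked what β-elemene does to immunity and metabolism in the tumour. Each group gave 1 library, the labels do not give the number of mice behind it, and both groups carry the same implanted line. No difference below therefore has a replicate check, no test was made, and every interval is an exact 95% interval that covers counting error only.

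Cholesterol is built from acetyl-CoA in a long chain of reactions, first through mevalonate and isoprenoid units to the straight-chain squalene, then by ring closure and trimming of lanosterol to the finished sterol. The chain is governed by the transcription factor SREBP2, which Scap escorts out of the endoplasmic reticulum when membrane sterol is low and which the Insig proteins hold back when it is high. SREBP2 acts on many of the enzyme genes at once, usually beside the promoter factors NF-Y and Sp1, so that they tend to move together. Tumour cells use the pathway for new membrane and for prenyl groups on proteins, whereas phagocytes take in much of their cholesterol with what they engulf.

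All 28 genes were found by symbol. They comprise 8 enzymes of the steps to squalene, 11 enzymes of the steps from squalene to cholesterol, 5 control genes and 4 genes of sterol transport or of an isoprenoid branch. The promoter windows of the 4 genes with the highest β-elemene to vehicle ratio in malignant cells that have an entry in the RefSeq promoter table (build GRCm38.p6, 250 bases before to 50 after the start) are shown, because the pathway's common controls are known to bind near the starts of its genes. Capitals mark matches, on either strand, to the sterol regulatory element TCACNCCAC, the NF-Y box CCAAT and the Sp1 box GGGCGG. The windows lie at chr13:119690101-119690400 on the plus strand (Hmgcs1), chr13:8885356-8885655 on the plus strand (Idi1), chrX:8193463-8193762 on the minus strand (Ebp) and chr8:64733529-64733828 on the minus strand (Msmo1).
Hmgcs1: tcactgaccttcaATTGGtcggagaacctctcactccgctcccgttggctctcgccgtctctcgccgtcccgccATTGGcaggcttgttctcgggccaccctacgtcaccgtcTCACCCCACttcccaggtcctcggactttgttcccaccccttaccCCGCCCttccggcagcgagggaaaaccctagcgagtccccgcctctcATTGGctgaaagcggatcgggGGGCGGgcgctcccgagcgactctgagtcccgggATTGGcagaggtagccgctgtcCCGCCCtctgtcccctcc
Idi1: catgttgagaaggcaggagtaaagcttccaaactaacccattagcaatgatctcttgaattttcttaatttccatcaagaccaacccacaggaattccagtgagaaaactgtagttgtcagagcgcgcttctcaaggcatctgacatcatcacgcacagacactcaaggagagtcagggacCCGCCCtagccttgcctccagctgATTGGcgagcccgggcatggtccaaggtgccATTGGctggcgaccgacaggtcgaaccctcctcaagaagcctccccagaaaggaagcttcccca
Ebp: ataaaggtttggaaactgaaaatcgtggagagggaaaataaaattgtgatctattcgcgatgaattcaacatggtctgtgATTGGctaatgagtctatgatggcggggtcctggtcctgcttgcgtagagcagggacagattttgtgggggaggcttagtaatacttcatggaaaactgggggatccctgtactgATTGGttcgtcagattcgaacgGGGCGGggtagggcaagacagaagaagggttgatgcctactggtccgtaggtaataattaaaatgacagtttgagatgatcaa
Msmo1: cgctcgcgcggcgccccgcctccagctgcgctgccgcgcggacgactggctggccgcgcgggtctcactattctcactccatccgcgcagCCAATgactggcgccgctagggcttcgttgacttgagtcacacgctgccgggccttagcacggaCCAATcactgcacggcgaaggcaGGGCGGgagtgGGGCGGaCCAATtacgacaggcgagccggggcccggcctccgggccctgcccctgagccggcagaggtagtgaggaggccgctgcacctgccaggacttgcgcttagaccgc

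In these windows Hmgcs1 held the sterol element at base -137 from the start, with 4 NF-Y boxes and 3 Sp1 boxes. Idi1 held 2 NF-Y boxes and 1 Sp1 box, Ebp 2 and 1, and Msmo1 3 and 2. Of the 28 genes 23 had an entry, some of them with several starts, which gave 31 promoters, and Fdps, Fdft1, Sqle, Stard4 and Npc1 had none. The NF-Y box was present in 22 of these 31 promoters, against 37.4% of 32851 promoters of the same length, and the Sp1 box in 25 of 31, against 35.7%. The sterol element was present in 1 of 31, against 1.24%. No motif contains another, a match is a description of the sequence, and absence says only that these letters are not in the window.

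The β-elemene library held 157282740 unique molecular identifiers (UMIs, each counting 1 captured transcript) in 11539 barcodes and the vehicle library 168750895 in 11324, of which 10546 and 10465 cells were kept. The libraries shared 37 barcodes. Levels are UMIs summed over a cell class in 1 library, scaled to 1000000 UMIs of that class and library (CPM). Class names were rebuilt from marker genes, none of the 28 genes was used for clustering, and 8 named classes had at least 100 cells in each library: malignant (3001 β-elemene and 3910 vehicle cells), neutrophil (1778 and 1124), macrophage (2218 and 2037), monocyte (690 and 604), T and NK (642 and 587), dendritic (134 and 134, also led by immunoglobulin genes), fibroblast (647 and 656) and endothelial (195 and 197), each to be read as "-like". A further cluster led by Mmp12 and Arg1 (742 and 806 cells) scored highest on macrophage markers and stayed unnamed. The keratin and junction genes Krt8, Krt18, Epcam and Cldn7, which mark malignant cells, stood at 1.49% to 14.5% of their malignant level in the other classes. This was taken as the scale of malignant RNA carried into them, but whether those classes express the 4 genes themselves was not tested. The shares were uneven in vehicle dendritic cells, from 4.39% for Krt8 to 14.5% for Epcam. For all but Lss in neutrophils and dendritic cells of the β-elemene library and Tm7sf2 in endothelial cells of the vehicle library, the 28 genes stood above the highest of these shares in their class.

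Among classes, the enzymes had no single home. Fdps, which makes farnesyl diphosphate, the last isoprenoid before squalene, was highest in malignant cells of both libraries, at 123 CPM in β-elemene and 90.4 CPM in vehicle. Fibroblasts followed with 110 CPM in β-elemene and 66.1 CPM in vehicle, and the intervals of these classes did not overlap in either library. Malignant cells were also highest in both libraries for Fdft1, the squalene synthase, at 26.1 CPM in β-elemene, apart from the next class, and 22.4 CPM in vehicle, with overlap, and for Sqle, the squalene epoxidase, at 29.7 CPM and 27.7 CPM. The next class for Sqle was at 16.1 CPM in β-elemene (the Mmp12 Arg1 cluster) and 15.5 CPM in vehicle (dendritic). Lss, which closes the ring of lanosterol, was likewise highest in malignant cells, at 4.53 CPM in β-elemene and 4.64 CPM in vehicle, apart from the next class in vehicle only.

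Other enzymes were highest elsewhere. Mvd, the mevalonate diphosphate decarboxylase, was lowest of the 9 cell groups in malignant cells, at 4.62 CPM in β-elemene and 3.94 CPM in vehicle, against 21.9 CPM and 21.4 CPM in the Mmp12 Arg1 cluster. Idi1, the isopentenyl diphosphate isomerase, was highest in dendritic cells, at 57.8 CPM in β-elemene and 89.1 CPM in vehicle. Pmvk, the phosphomevalonate kinase, was highest in macrophages, at 131 CPM in β-elemene and 108 CPM in vehicle, with dendritic cells next and overlapping intervals. Sc5d, a sterol desaturase, was highest in T and NK cells, at 33.3 CPM in β-elemene and 29.1 CPM in vehicle, apart from malignant cells in second place at 18.6 CPM and 15.7 CPM.

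Lbr, a sterol reductase that is also a receptor of the nuclear envelope, was highest in neutrophils and T and NK cells. It stood at 93.0 CPM in β-elemene and 105 CPM in vehicle neutrophils and at 86.0 CPM and 111 CPM in T and NK cells, with overlapping intervals. Neutrophils were the lowest of the 9 cell groups in both libraries for Hmgcs1, Mvk, Pmvk, Sqle, Cyp51, Nsdhl, Ebp and Dhcr7, but held more Mvd than malignant cells, at 14.0 CPM in β-elemene and 16.8 CPM in vehicle. Hmgcs1, the cytosolic HMG-CoA synthase, stood there at 7.1 CPM in β-elemene and 7.82 CPM in vehicle, and Sqle at 1.96 CPM in both. Neutrophils had a median of only 1984 UMIs per cell in β-elemene and 1910.5 in vehicle, against 22435 and 21215 in malignant cells, so their levels rest on fewer counts.

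The genes of the lysosomal exit of cholesterol were highest in macrophages or monocytes. Macrophages were not low in synthesis genes, as the 19 enzymes together stood there at 529 CPM in β-elemene and 499 CPM in vehicle. In malignant cells the same sum was 566 CPM in β-elemene and 458 CPM in vehicle. Npc1, the membrane protein that moves cholesterol out of lysosomes, was lowest in malignant cells, at 6.15 CPM in β-elemene and 6.5 CPM in vehicle, against 49.3 CPM and 54.2 CPM in macrophages and 45.0 CPM and 61.8 CPM in monocytes. Its soluble partner Npc2 stood at 885 CPM in β-elemene and 792 CPM in vehicle macrophages, at 885 CPM and 746 CPM in monocytes, and at 575 CPM and 485 CPM in malignant cells. Stard4, a carrier of cholesterol between membranes, and Ggps1, which makes geranylgeranyl diphosphate, were both highest in endothelial cells, Stard4 at 40.3 CPM in β-elemene and 43.2 CPM in vehicle and Ggps1 at 47.4 CPM and 40.9 CPM. T and NK cells followed, with intervals that overlapped for Ggps1 in both libraries and for Stard4 in vehicle.

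**Figure D1:**
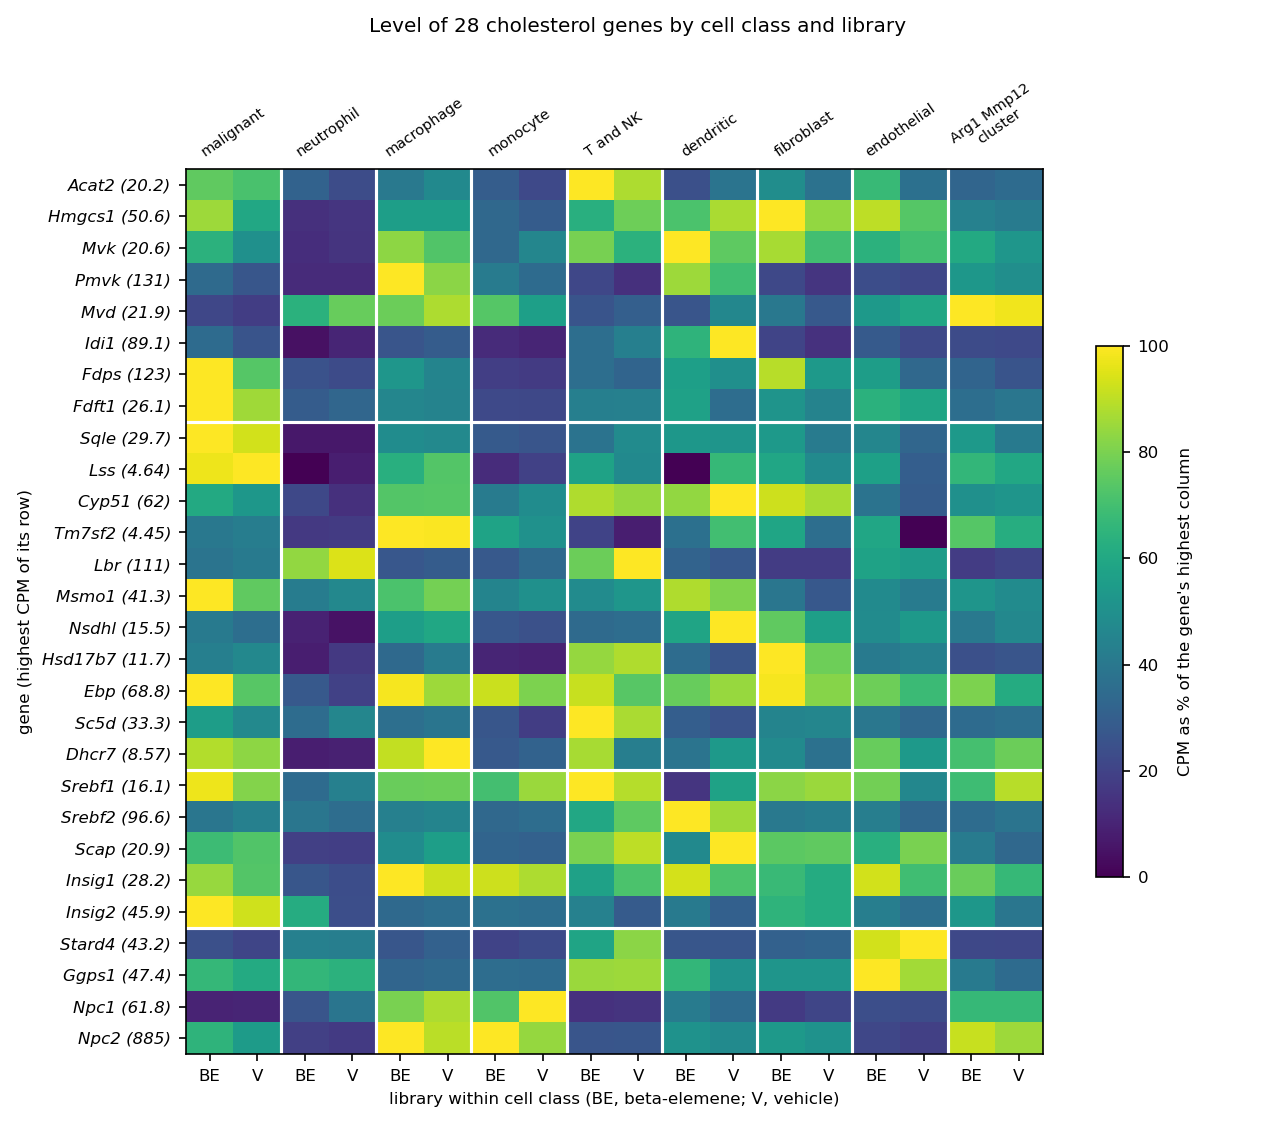
Levels of the 28 genes by cell class, with the β-elemene (BE) column left of the vehicle (V) column in each class. Rows are genes in pathway order with their highest CPM in brackets, and colour is CPM as a percentage of that highest value. Fdps, Fdft1 and Sqle are brightest in malignant cells, Npc1 in macrophages and monocytes and Lbr in neutrophils and T and NK cells.

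The first comparison was between β-elemene and vehicle in malignant cells, where most of the pathway was higher in β-elemene by modest folds. The 19 enzymes together stood at 566 CPM in β-elemene and 458 CPM in vehicle, a ratio of 1.24 (0.29 to 0.32 on the log2 scale). All 28 genes had at least 50 UMIs in both libraries together, the minimum used throughout, and 21 had a ratio above 1, against 45.9% of the 15303 genes with that minimum. A gene was counted as higher where its β-elemene level exceeded the vehicle level by at least 25%, as lower where vehicle exceeded β-elemene by as much, and only with an interval that left out 1. By this rule 7 of the 28 genes were higher, against 4.93% of all genes, and 0 were lower, against 12.2%. At 1.5-fold 0 were higher (1.5% of all genes) and 0 lower (6.84%). The median log2 ratio was 0.21, against -0.03 over all genes.

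The steps to squalene held 5 of the 7 (gene positions are those of GENCODE vM21 on GRCm38). Hmgcs1 (chr13:119690379-119708260), which commits acetyl units to the pathway, stood at 43.2 CPM in β-elemene and 30.3 CPM in vehicle, a ratio of 1.42 (1.35 to 1.5). Fdps (chr3:89093588-89101959) had a ratio of 1.37 (1.33 to 1.41). Idi1 (chr13:8885501-8892451) stood at 31.3 CPM in β-elemene and 23.1 CPM in vehicle, a ratio of 1.36 (1.28 to 1.44). The consecutive kinases of mevalonate were also higher. Pmvk (chr3:89454541-89469013) stood at 45.3 CPM in β-elemene and 34.9 CPM in vehicle, a ratio of 1.3 (1.24 to 1.36), and Mvk (chr5:114444269-114460591) at 13.2 CPM and 10.3 CPM, a ratio of 1.28 (1.17 to 1.4).

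The other 3 genes of this stretch were above 1 but under the threshold. Mvd had a ratio of 1.17 (1.01 to 1.36), Fdft1 1.17 (1.1 to 1.24) and Acat2, the cytosolic thiolase that makes acetoacetyl-CoA, 1.06 (0.984 to 1.15), from 15.3 CPM in β-elemene and 14.4 CPM in vehicle. The 8 genes had a median log2 ratio of 0.37 and a summed level of 303 CPM in β-elemene and 230 CPM in vehicle. Fdps alone gave 9727 of 23839 of their UMIs in β-elemene and 8394 of 21340 in vehicle, so the sum follows it. Acat2 shares at least 91 bases at 95% identity or more with Acat3 and Tcp1 near its end, both listed in the count tables. Fdps shares as much with 6 other annotated genes and Idi1 with 2, none of them listed there. How reads from these shared stretches were assigned was not tested.

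From squalene to cholesterol the picture was mixed. Ebp (chrX:8185329-8193512), the sterol isomerase, stood at 68.8 CPM in β-elemene and 50.8 CPM in vehicle, a ratio of 1.36 (1.3 to 1.41). Msmo1 (chr8:64718139-64733792), which takes part in removing methyl groups on the way from lanosterol, stood at 41.3 CPM in β-elemene and 31.2 CPM in vehicle. Its ratio was 1.32 (1.26 to 1.39). These were the only 2 of 11 past the threshold, and the summed level of the 11 was 264 CPM in β-elemene and 229 CPM in vehicle, a ratio of 1.15 (1.13 to 1.18). Their median log2 ratio was 0.10.

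Cyp51, the lanosterol demethylase, had 37.6 CPM in β-elemene and 32.7 CPM in vehicle, a ratio of 1.15 (1.09 to 1.21). Sc5d had a ratio of 1.18 (1.1 to 1.27) and Sqle, a rate-limiting step, 1.07 (1.01 to 1.14). The intervals of 5 further genes of this stretch included 1. These were Nsdhl, which finishes the demethylation, at 1.12 (0.991 to 1.27), Dhcr7, the last reductase, at 1.06 (0.952 to 1.19), Lss at 0.976 (0.846 to 1.13), the sterol reductase Tm7sf2 at 0.938 (0.746 to 1.18) and the ketosteroid reductase Hsd17b7 at 0.922 (0.806 to 1.05). Lbr was the only enzyme with an interval wholly below 1, at 42.7 CPM in β-elemene and 45.8 CPM in vehicle, a ratio of 0.932 (0.89 to 0.975).

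The control genes did not follow a single direction. Srebf2, which encodes SREBP2, was at 37.9 CPM in β-elemene and 41.9 CPM in vehicle, a ratio of 0.905 (0.863 to 0.95), the lowest of the 28. Srebf1, which encodes the related factor for fatty acid synthesis, was at 15.7 CPM in β-elemene and 13.1 CPM in vehicle, a ratio of 1.2 (1.11 to 1.3). Scap stood at 0.94 (0.868 to 1.02). Insig1, a retention factor that is itself an SREBP2 target, was at 23.9 CPM in β-elemene and 20.6 CPM in vehicle, a ratio of 1.16 (1.09 to 1.24), and Insig2 at 45.9 CPM and 42.5 CPM, a ratio of 1.08 (1.03 to 1.13). None of the 5 passed the 25% threshold either way. An mRNA level does not show how much SREBP2 protein was cleaved.

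Of the transport and branch genes, Npc2 had the narrowest interval, 1.17 to 1.2 around a ratio of 1.19. Stard4 was at 10.6 CPM in β-elemene and 9.1 CPM in vehicle, a ratio of 1.17 (1.06 to 1.28), Ggps1 at 1.09 (1.04 to 1.16) and Npc1 at 0.947 (0.838 to 1.07). None of these 4 passed the threshold.

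**Figure D2:**
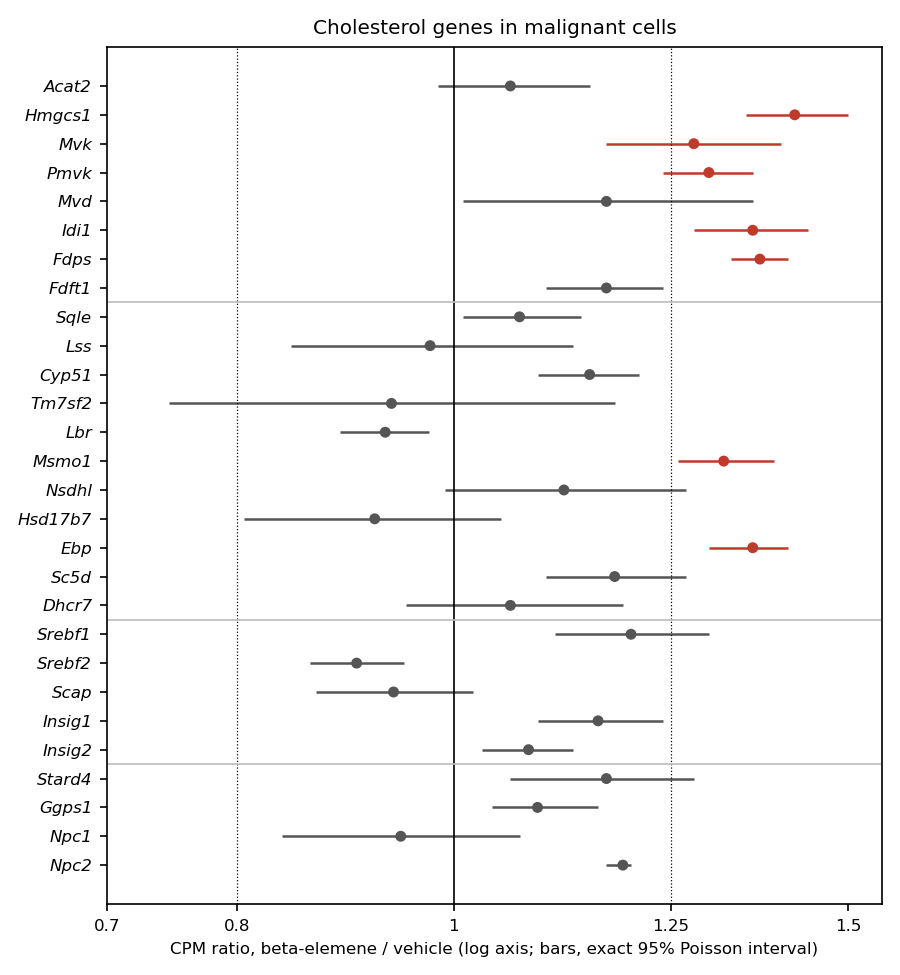
Ratio of CPM, β-elemene over vehicle, for the 28 genes in malignant cells on a log axis, with exact 95% intervals as bars. Red marks the 7 genes at least 25% higher, dotted lines mark that threshold either way, and grey lines part the steps to squalene, the later steps, control, and transport and branch genes. Hmgcs1 is farthest right at 1.42 and Srebf2 farthest left at 0.905.

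The enzymes were also summed cell by cell. Among malignant cells with at least 5000 UMIs (2855 in β-elemene, 3639 in vehicle), the summed enzyme level had a median of 370 CPM in β-elemene and 314 CPM in vehicle. The lower quartile was 221 CPM in β-elemene and 184 CPM in vehicle, the upper quartile 665 CPM and 527 CPM and the 90th percentile 1129 CPM and 873 CPM. Each of these points of the distribution stood higher in the β-elemene library, and a cell had a median of 6 of the 19 enzymes detected in β-elemene and 5 in vehicle.

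Malignant cells in division carried more of the pathway than other malignant cells in both libraries. Malignant cells with a UMI of Mki67 or Top2a, which mark cycling cells, held 661 CPM of enzymes in β-elemene and 534 CPM in vehicle, and cells with neither held 389 CPM in β-elemene and 315 CPM in vehicle. The share of malignant cells with either gene was 52.7% in β-elemene and 53.8% in vehicle. The enzyme level was thus higher in β-elemene on both sides of this split, and with cells free of both genes the median log2 ratio of the 28 genes was 0.22. A UMI in a cell depends on its depth, and Mki67 and Top2a themselves had ratios of 0.887 (0.860 to 0.914) and 0.888 (0.872 to 0.906) in malignant cells.

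Malignant cells fell into 13 sub-clusters, of which 7 had at least 100 cells in each library and were compared, each called by leading genes. Of the smaller ones, which stay in the malignant sums, 1 was led by the neutrophil genes S100a9 and S100a8 (82 β-elemene and 147 vehicle cells). Others were led by Gm26917 and Acta1 (98 and 131 cells) and by Ptn and Prlr (40 and 70 cells). Further ones were led by Wfdc18 and Csn3 (21 and 35 cells) and by Acta2 and Tagln (8 and 9 cells). Whether all of these smaller sub-clusters are tumour cells was not tested. Another, led by the interferon-induced genes Ifit1 and Isg15 (33 and 34 cells), had a lower enzyme level, at 346 CPM in β-elemene and 410 CPM in vehicle, a ratio of 0.844 (0.713 to 0.999), and Fdps there stood at 52.8 CPM in β-elemene and 93.8 CPM in vehicle, a ratio of 0.563 (0.371 to 0.843). With the 7 sub-clusters alone the median log2 ratio of the 28 genes in malignant cells was 0.20, with 7 genes higher and 0 lower. The enzymes were highest in the mitotic sub-cluster led by Pttg1 and Cdc20, at 874 CPM in β-elemene and 669 CPM in vehicle, and next in the one led by replication-dependent histone genes such as Hist1h1b, at 727 CPM and 600 CPM. With both libraries pooled, 17 of the 19 enzymes had their highest level in these 2 dividing sub-clusters. Idi1 spanned 10.8 to 51.4 CPM over the 7, the widest range of the 28 genes as a fold (4.75), Cyp51 12.8 to 58.7 CPM and Msmo1 13.8 to 62.4 CPM. All 3 were lowest in the sub-cluster led by Hbb-bs, Lcn2 and Cldn4.

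Ebp and Dhcr7 were the exceptions among the enzymes. Ebp was highest where most of the others were lowest, at 88.0 CPM in the Hbb-bs sub-cluster, and Dhcr7 was highest at 13.9 CPM in the sub-cluster led by Mir100hg. Npc2 was lowest, at 366 CPM, in the histone sub-cluster and highest, at 814 CPM, in the Hbb-bs sub-cluster. Insig2 was highest, at 64.3 CPM, in a sub-cluster led by Ero1l, Bnip3, Ankrd37 and Car9, which are genes known to be induced by low oxygen.

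**Figure D3:**
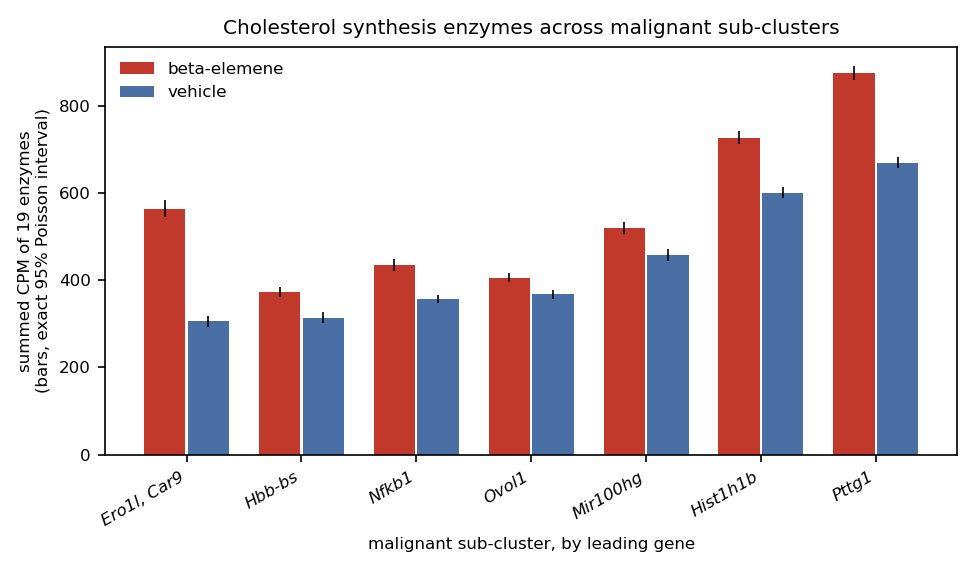
Summed CPM of the 19 enzymes in the 7 malignant sub-clusters with at least 100 cells in each library, named by leading genes and ordered by their vehicle level. Red bars are β-elemene, blue bars vehicle, and black lines are exact 95% Poisson intervals. The mitotic sub-cluster led by Pttg1 is highest in both libraries (874 CPM in β-elemene, 669 CPM in vehicle), and the gap between libraries is widest relative to its size in the sub-cluster led by Ero1l and Car9 (564 CPM and 306 CPM).

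The enzymes' ratio was above 1 in each of the 7 sub-clusters compared. It was 1.1 (1.06 to 1.15) in the one led by Ovol1, 1.14 (1.09 to 1.18) in that led by Mir100hg and 1.19 (0.18 to 0.32 on the log2 scale) in that led by Hbb-bs. It was 1.21 (0.23 to 0.32 on the log2 scale) in the histone sub-cluster, 1.22 (1.17 to 1.27) in one led by Nfkb1 and Csf3 and 1.3 (1.27 to 1.34) in the mitotic one. In the Ero1l and Car9 sub-cluster it was 1.84 (1.75 to 1.94). The number of genes at least 25% higher was 4 of 28 in the Mir100hg sub-cluster (3.73% of all genes), 5 of 27 in the Ovol1 (5.55%) and 6 of 27 in the Hbb-bs sub-cluster (5.23%). It was 7 of 28 in the histone (7.74%), 8 of 27 in the Nfkb1 (5.82%) and 10 of 28 in the mitotic sub-cluster (7.23%). Acat2, at 12.7 CPM in β-elemene and 16.5 CPM in vehicle of the Mir100hg sub-cluster, was the only gene at least that much lower (7.81% of all genes). In the other sub-clusters 0 were lower, where the share of all genes was 4.83% (Ovol1), 6.6% (Hbb-bs), 10.1% (histone), 4.57% (Nfkb1) and 6.75% (mitotic). The Nfkb1 sub-cluster held 8.7% of malignant cells in β-elemene and 17.6% in vehicle. With these 7 sub-clusters given the same weights in both libraries, by their pooled UMIs, the median log2 ratio of the 28 genes in malignant cells was 0.21.

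Single genes differed in how evenly they were higher. Of the 26 genes with at least 50 UMIs in each of the 7 sub-clusters, 7 had a ratio above 1 in every one, against 12.7% of all 9566 such genes. They were Mvk, Pmvk, Fdps, Msmo1, Ebp, Srebf1 and Npc2. Fdps, for instance, stood at 224 CPM in β-elemene and 157 CPM in vehicle in the mitotic sub-cluster, and at 70.5 CPM and 63.0 CPM in the Ovol1 sub-cluster. Hmgcs1 had ratios of 1.3 to 2.18 in 6 sub-clusters and 0.854 (0.685 to 1.07) in the Hbb-bs sub-cluster, at 15.5 CPM in β-elemene and 18.2 CPM in vehicle. Npc1 was the only gene below 1 in every sub-cluster, against 8.32% of all genes.

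The Ero1l and Car9 sub-cluster, 251 cells of the β-elemene library and 352 of the vehicle library, was singled out after its values were seen. In vehicle it had the lowest enzyme level of the 7 (306 CPM), though overlapping that of the Hbb-bs sub-cluster (314 CPM), and in β-elemene the third highest (564 CPM). Of the 26 genes of the pathway that passed the UMI minimum there, 17 were at least 25% higher, against 8.98% of 9995 genes, and 0 were lower, against 6.44%. A ratio above 1 was seen for 23 of 26, against 58.0% of genes, and the median log2 ratio was 0.67, against 0.05 over all genes. Among the 26 genes 17 had their highest ratio of the 7 sub-clusters there, 13 of them enzymes, against 24.9% of all genes.

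In these cells Fdps stood at 124 CPM in β-elemene and 51.4 CPM in vehicle, a ratio of 2.41 (2.13 to 2.73). Hmgcs1 stood at 54.9 CPM in β-elemene and 25.1 CPM in vehicle, a ratio of 2.18 (1.82 to 2.62), and Idi1 at 27.1 CPM and 11.6 CPM, a ratio of 2.34 (1.8 to 3.07). The later steps took part as well. Cyp51 stood at 41.7 CPM in β-elemene and 18.2 CPM in vehicle, a ratio of 2.3 (1.86 to 2.85), and Msmo1 at 46.3 CPM and 21.1 CPM, a ratio of 2.2 (1.81 to 2.69). Stard4 had the highest ratio, 2.51 (1.57 to 4.1), on 57 UMIs in β-elemene and 28 in vehicle.

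The control genes again parted. Insig1 was at 25.2 CPM in β-elemene and 14.6 CPM in vehicle, a ratio of 1.72 (1.34 to 2.22), and Srebf2 at 37.7 CPM and 28.9 CPM, a ratio of 1.3 (1.08 to 1.57). Srebf1 at 1.21 (0.917 to 1.6), Insig2 at 1.1 (0.959 to 1.26) and Scap at 0.832 (0.593 to 1.16) had intervals that included 1. So did Lbr, at 28.6 CPM in β-elemene and 29.7 CPM in vehicle, and Npc1, at 5.69 CPM and 5.92 CPM.

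Other genes also differed between libraries in the same cells. Among its leading genes Ero1l had a ratio of 1.39 (1.32 to 1.47), Car9 1.27 (1.18 to 1.36) and Ankrd37 1.64 (1.49 to 1.81), while Bnip3 was at 0.998 (0.941 to 1.06). The metallothionein genes Mt1 and Mt2, also among them, were at 0.984 (0.966 to 1.0) and 0.878 (0.85 to 0.906). Mki67 had 13.8 CPM in β-elemene and 5.79 CPM in vehicle, a ratio of 2.38 (1.64 to 3.51), and Top2a a ratio of 1.52 (1.23 to 1.87). In cells with no UMI of either, the median log2 ratio of the 28 genes was 0.59, and in the matching cluster drawn at a finer resolution, with 176 β-elemene and 180 vehicle cells, it was 0.64. The part of the leading genes in the result was not tested. Without this sub-cluster the median in all malignant cells was 0.16, with 6 genes at least 25% higher.

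**Figure D4:**
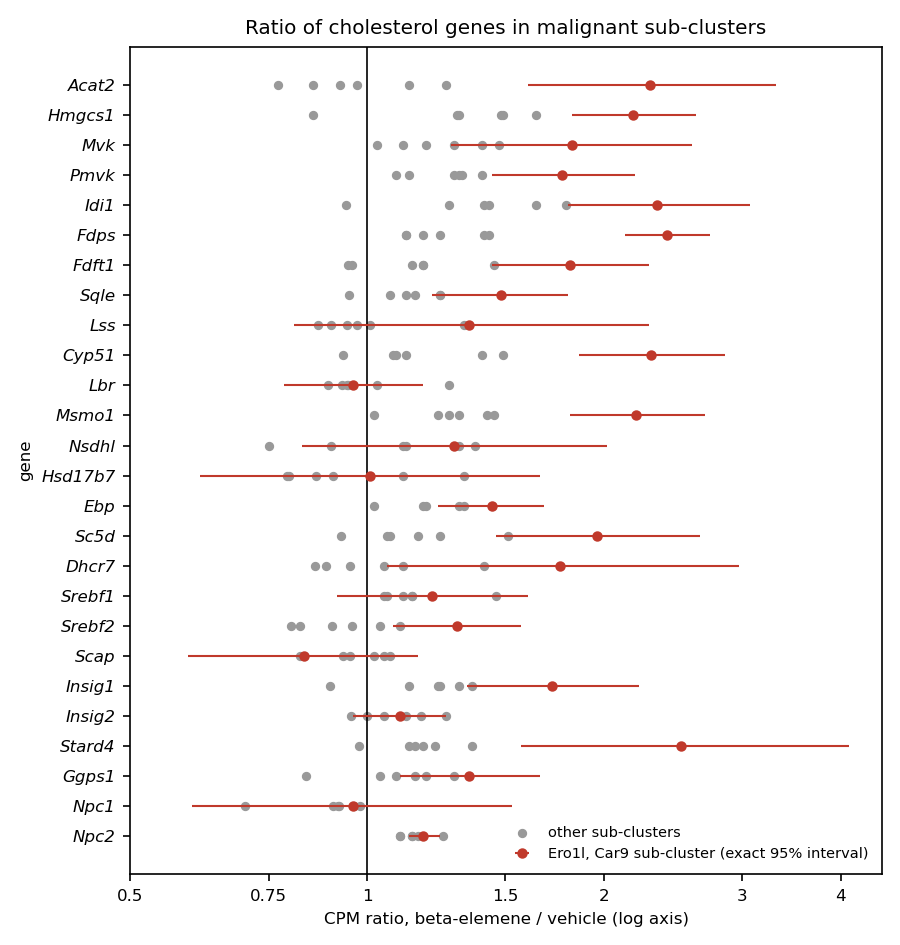
Ratio of CPM, β-elemene over vehicle, on a log axis for the 26 genes with at least 50 UMIs in the malignant sub-cluster led by Ero1l and Car9. Red points are that sub-cluster with exact 95% intervals, and grey points are the other malignant sub-clusters with at least 100 cells in each library. Fdps, Idi1, Cyp51, Msmo1, Hmgcs1 and Acat2 lie at 2.18 to 2.41 there, while Lbr, Scap, Insig2 and Npc1 lie among the grey points.

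In fibroblasts the enzymes were higher as well. Their sum was 482 CPM in β-elemene and 375 CPM in vehicle, a ratio of 1.29 (1.24 to 1.33). All 28 genes passed the UMI minimum and 9 were at least 25% higher, each an enzyme, against 9.0% of 12495 genes, while 0 were lower, against 7.03%. Of the 19 enzymes 17 had a ratio above 1, against 57.5% of genes, and their median log2 ratio was 0.36, against 0.04 over all genes. The 5 control genes had a median of -0.01 and the 4 transport and branch genes of -0.02.

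Fdps was the only one of the 28 past 1.5-fold with an interval that left out 1 in fibroblasts, against 2.42% of genes, at 110 CPM in β-elemene and 66.1 CPM in vehicle, a ratio of 1.66 (1.53 to 1.8). Idi1 was at 18.4 CPM in β-elemene and 12.8 CPM in vehicle, a ratio of 1.44 (1.19 to 1.75), and Msmo1 at 16.2 CPM and 11.4 CPM, a ratio of 1.42 (1.16 to 1.75). The remaining 6 were Acat2, Pmvk, Mvd, Sqle, Nsdhl and Hsd17b7, at ratios of 1.28 to 1.44. Tm7sf2 had a ratio of 1.64 (0.953 to 2.87), on 39 UMIs in β-elemene and 23 in vehicle. Npc1 was lowest, at 10.5 CPM in β-elemene and 13.0 CPM in vehicle, a ratio of 0.805 (0.647 to 1.0). Npc2 was at 474 CPM in β-elemene and 451 CPM in vehicle.

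Malignant markers were also higher in the β-elemene fibroblasts. Krt8, Krt18, Epcam and Cldn7 together stood there at 409 CPM in β-elemene and 281 CPM in vehicle, a ratio of 1.46 (1.4 to 1.52), or 7.76% to 9.47% of their malignant level in β-elemene and 6.22% to 7.54% in vehicle. After subtraction of the malignant level in the median of these shares, the ratio of Fdps was 1.66. The number at least 25% higher was then 12, but without an interval condition, so it cannot be set against the count above. The 10 genes of dividing cells were above 1 in 10 of 10 in fibroblasts, with 1 past the threshold. With cells thinned to 1000 UMIs 1 gene was past the threshold. All of the 9 genes above but Fdps then fell under the UMI minimum, so their ratios could not be read. With 10 CPM added to both levels 2 of the 28 genes were past the threshold.

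In endothelial cells the 19 enzymes together stood at 438 CPM in β-elemene and 360 CPM in vehicle, a ratio of 1.22 (1.11 to 1.34). The 13 enzymes that passed the UMI minimum had a median log2 ratio of 0.2, against 0.07 over all genes. Of the 28 genes 21 passed the UMI minimum and Fdps alone was past the threshold, against 9.0% of 7999 genes higher and 4.39% lower. It stood at 68.4 CPM in β-elemene and 41.8 CPM in vehicle, a ratio of 1.64 (0.33 to 1.1 on the log2 scale). Of its 156 β-elemene UMIs 25 came from 1 cell, and the ratio was 1.17 as a mean over cells and 1.12 in cells with no UMI of Mki67 and Top2a. Malignant markers in this class stood at 283 CPM in β-elemene and 79.0 CPM in vehicle, a ratio of 3.59 (3.02 to 4.27). With the malignant level subtracted at the median share of these markers, Fdps was at 1.52. Sqle, at 1.39 (0.775 to 2.55), and Scap, at 0.786 (0.468 to 1.31), followed at either end, and Npc2 and Lbr were at 1.12 (0.974 to 1.29) and 1.05 (0.825 to 1.34).

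**Figure D5:**
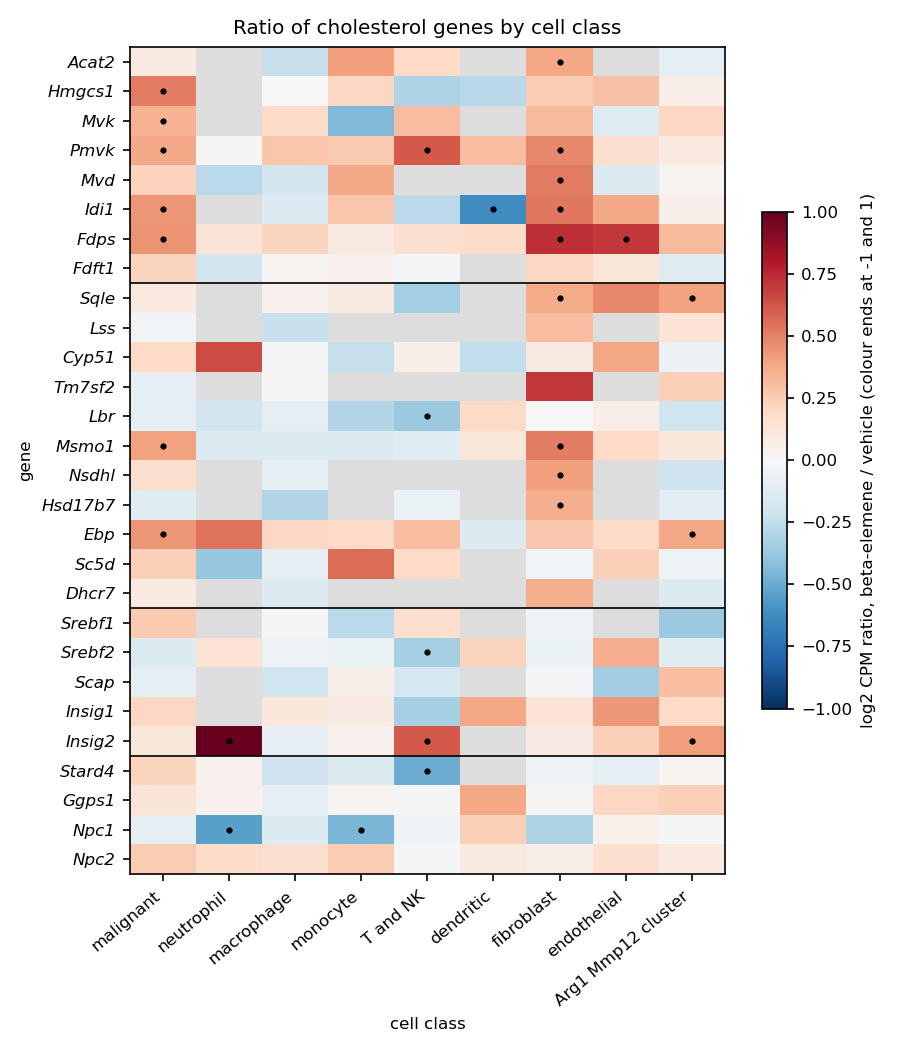
Log2 ratio of CPM, β-elemene over vehicle, for the 28 genes (rows, in pathway order) in 8 named classes and the Mmp12 Arg1 cluster (columns). Red is higher in β-elemene, blue lower, grey marks genes under 50 UMIs, and dots mark genes past the 25% threshold with an interval that leaves out 1. Most enzymes are red in malignant cells and fibroblasts, with 7 and 9 dots, and the macrophage column has none.

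In macrophages no gene passed the threshold. All 28 genes passed the minimum there, 0 were at least 25% higher (3.91% of 12734 genes) and 0 lower (6.97%), and the median log2 ratio was -0.08, against -0.03 over all genes. The highest ratio was that of Pmvk, 1.21 (1.15 to 1.28), and the lowest that of Hsd17b7, 0.817 (0.624 to 1.07). Npc2, at 885 CPM in β-elemene and 792 CPM in vehicle, had a ratio of 1.12 (1.1 to 1.14). The 19 enzymes together stood at 529 CPM in β-elemene and 499 CPM in vehicle, a ratio of 1.06 (1.03 to 1.08), while their median log2 ratio was -0.08.

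The Mmp12 Arg1 cluster had 3 of 28 genes higher, against 4.5% of 10581 genes, and 0 lower, against 5.12%. Insig2 was at 24.3 CPM in β-elemene and 18.1 CPM in vehicle, a ratio of 1.34 (1.1 to 1.64). Sqle was at 16.1 CPM in β-elemene and 12.2 CPM in vehicle, a ratio of 1.32 (1.03 to 1.69), and Ebp at 55.3 CPM and 42.3 CPM, a ratio of 1.31 (1.15 to 1.49). In its largest sub-cluster alone the ratio of Ebp was 1.04. Srebf1 was lowest, at 0.773 (0.595 to 1.0), and Npc2 and Pmvk were both at 1.07.

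In neutrophils 15 of the 28 genes passed the minimum, and Insig2, the endoplasmic reticulum anchor that holds Scap and SREBP2 back, had the highest ratio of the 28 genes in any class where they passed. It stood at 28.4 CPM in β-elemene, on 116 UMIs, and at 11.0 CPM in vehicle, on 28 UMIs, a ratio of 2.59 (1.70 to 4.07). Of the genes tested in neutrophils 0.076% had a higher ratio, and 4.46% were at least 25% higher and 7.91% lower. Insig2 was at 61.9% of the malignant level in β-elemene and 25.8% in vehicle, while malignant markers were at 4.43% to 5.9% and 4.95% to 6.43%. With called doublets kept the ratio was 1.65, and without the cell with most UMIs it was 2.7.

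Npc1 was the other gene past the threshold in neutrophils, at 16.4 CPM in β-elemene and 23.9 CPM in vehicle, a ratio of 0.687 (0.479 to 0.989). The next highest ratio was that of Cyp51, 1.56 (0.939 to 2.69), with an interval that included 1. The 9 enzymes that passed had a median log2 ratio of -0.14. Npc2 and Lbr were at 1.14 (1.0 to 1.29) and 0.884 (0.754 to 1.04).

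Across classes Insig2 was higher in 3 of the 8 that had enough UMIs. In T and NK cells it stood at 20.2 CPM in β-elemene and 13.2 CPM in vehicle, a ratio of 1.53 (1.01 to 2.36). It was at 1.08 in malignant cells, and in macrophages it stood at 15.7 CPM in β-elemene and 16.6 CPM in vehicle. The differences between classes were not tested.

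Monocytes had 23 genes over the minimum, 0 higher (7.22% of 8694 genes) and 1 lower (7.3%). That gene was Npc1, at 45.0 CPM in β-elemene and 61.8 CPM in vehicle, a ratio of 0.728 (0.608 to 0.872). Its direction turned with the drawing of the class: it was 1.06 with clusters at resolution 2.0, 1.01 with the 28 genes allowed into clustering and 1.29 in the largest sub-cluster alone. Sc5d had the highest ratio, 1.48 (0.897 to 2.48), and Npc2 and Ebp were at 1.19 (1.13 to 1.24) and 1.15 (0.967 to 1.36).

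T and NK cells had 23 genes over the minimum, 2 higher (5.55% of 8365 genes) and 3 lower (7.48%). Besides Insig2, Pmvk was higher, at 28 CPM in β-elemene and 18.4 CPM in vehicle, a ratio of 1.52 (1.07 to 2.19). Lbr was at 86.0 CPM in β-elemene and 111 CPM in vehicle, a ratio of 0.772 (0.655 to 0.91), and Srebf2 at 57.8 CPM and 72.8 CPM, a ratio of 0.793 (0.647 to 0.972). Stard4 was at 25.3 CPM in β-elemene and 35.7 CPM in vehicle, a ratio of 0.709 (0.524 to 0.959). The interval of the summed enzymes included 1, at 484 CPM in β-elemene and 486 CPM in vehicle, a ratio of 0.996 (0.926 to 1.07).

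In dendritic cells 13 genes passed the minimum, 0 were higher (5.52% of 5548 genes) and Idi1 was lower (9.82%). It stood at 57.8 CPM in β-elemene and 89.1 CPM in vehicle, a ratio of 0.649 (0.475 to 0.881), and was past 1.5-fold, as were 6.16% of genes. Malignant markers in this class stood at 108 CPM in β-elemene and 257 CPM in vehicle. With the malignant level subtracted at the median share of these markers, the ratio of Idi1 was 0.653. Insig1 was highest, at 1.31 (0.757 to 2.29). Npc2 and Pmvk were at 1.06 (0.943 to 1.2) and 1.24 (0.960 to 1.6).

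Genes of neighbouring pathways were counted beside the enzymes in malignant cells. Of the 16 genes of sterol export, storage and handling, 15 passed the minimum, 0 were past the 25% threshold either way and the median log2 ratio was 0.01. Soat1, which esterifies cholesterol for storage, was at 66.3 CPM in β-elemene and 82.7 CPM in vehicle, a ratio of 0.802 (0.774 to 0.831). Apoe, which carries cholesterol out of cells in lipoproteins, was at 183 CPM in β-elemene and 163 CPM in vehicle, a ratio of 1.12 (1.1 to 1.15). Vldlr was highest, at 1.24 (0.776 to 1.99), and Nr1h3, a sterol-sensing nuclear receptor, lowest, at 0.671 (0.436 to 1.02).

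All 12 genes of fatty acid synthesis, which answer mainly to the Srebf1 product, passed the minimum, with 1 higher, 0 lower and a median log2 ratio of -0.01, beside the 4.93% of all genes higher, 12.2% lower and the median of -0.03. The higher gene was Scd1, a stearoyl-CoA desaturase, at 5.79 CPM in β-elemene and 4.31 CPM in vehicle, a ratio of 1.34 (1.17 to 1.54). Its relative Scd2 was at 154 CPM in β-elemene and 130 CPM in vehicle, a ratio of 1.18 (1.15 to 1.21), and Acly, which supplies cytosolic acetyl-CoA, was lowest at 0.87 (0.835 to 0.907). The 12 genes that use isoprenoids for dolichol, coenzyme Q or protein prenylation also had a median of -0.01, with 0 past the threshold. Rabggtb, a subunit of the enzyme that prenylates Rab proteins, was at 70.3 CPM in β-elemene and 60.1 CPM in vehicle, and Pdss2, of coenzyme Q synthesis, was lowest at 0.903 (0.853 to 0.956). The 10 genes of dividing cells had a median of 0.08, with 0 past the threshold, from Mki67 at 0.887 to Cdk1, a mitotic kinase, at 1.18 (1.14 to 1.22). The malignant markers Krt8, Krt18, Epcam and Cldn7 were higher by as much as the cholesterol genes. Together they had a ratio of 1.19 (1.18 to 1.19) and a median of 0.21, with 1 of 4 past the threshold. The 28 genes together had a ratio of 1.18 and a median of 0.21.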

How the data were processed

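The deposited values are counts: raw UMI counts for each gene in each barcode, from Cell Ranger 7.1.0 per the file headers, and per the submitters' processing notes the tools were Cell Ranger and STAR with the mm10 build. Libraries used 3' droplet chemistry, version 3, per the labels' protocols. Intron counting, strand use and the annotation release are not given in the sources used here. Several of the 28 genes overlap others in exons, which makes their counts uncertain. On the same strand these are Fdps (Gm43738), Tm7sf2 (Vps51), Lbr (Gm26004) and Srebf1 (Mir6922). On the opposite strand, where the effect depends on whether strand was used, they include Hmgcs1 (Gm48342), Idi1 (Gm48574) and Fdft1 (Ctsb). Cyp51 (Akap9), Lbr (Dnah14) and Srebf1 (Rai1) are also among those.

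Barcodes with at least 200 genes and at most 20% mitochondrial UMIs were kept, and 315 (2.90%) called doublets in β-elemene and 338 (3.13%) in vehicle were removed. Cells of both libraries were clustered together with scanpy 1.11.5 (Python 3.11.15, numpy 2.4.6, scipy 1.17.1, leidenalg 0.10.2) on 2000 variable genes without the 28, 30 principal components, 15 neighbours and resolution 1.0; classes were split again at 0.6. Class names came from lists of marker genes. UMIs were summed per class and library, and ratios carry exact conditional Poisson intervals. The ratios and intervals alone were tested on simulated Poisson counts. Those counts hold no variation between cells or libraries, and clustering and class names were not part of that test.

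All 28 genes were named in malignant cells. In other classes genes past 1.5-fold with an interval excluding 1, the 2 with most UMIs and the highest and lowest ratio were named, and of the companion lists those past 1.5-fold, the most abundant and the most extreme. Other genes past the 25% threshold were added after their values were seen. The genes and lists were chosen with earlier results of these data known. Gene positions came from GENCODE vM21 and sequences from RefSeq. Some genes of the pathway were not analysed here.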

Additional observations from a re-analysis of the deposited data

Results flagged for a closer look

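Idi1 was marked because its direction differed between cell classes, on the same β-elemene to vehicle contrast. Its ratio was 1.36 in malignant cells and 1.44 in fibroblasts, both at least 25% higher, and 0.649 in dendritic cells, where vehicle was at least 25% above β-elemene. The dendritic value rests on 70 UMIs in β-elemene and 115 in vehicle, from 134 cells in each library. The difference between classes was not tested, since each group is 1 library.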

How the results depend on the processing

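The median log2 ratio of the 28 genes in malignant cells was 0.10 to 0.26 over 18 alternatives (other filters, resolutions, scalings, UMI minimums, cell sets), and in the Ero1l and Car9 sub-cluster 0.57 to 0.64 over 5. It was 0.10 with 10 CPM added, which left 3 malignant genes higher. In the largest sub-cluster alone 4 were higher and 1 lower, and at a fold of 1.5 the number higher was 0. In fibroblasts 9 higher genes became 2 with 10 CPM added, 1 with cells thinned to 1000 UMIs and 1 at a fold of 1.5. In the thinned cells all of the 9 but Fdps fell under the UMI minimum, so their ratios could not be read there. Npc1 in monocytes turned to 1.06, 1.01 and 1.29 at resolution 2.0, with the 28 genes clustered and in the largest sub-cluster. The cause was not tested. Alternatives on the Ero1l and Car9 sub-cluster, on the choice and weights of sub-clusters, on subtracted malignant RNA and on macrophages joined with the Mmp12 Arg1 cluster were chosen after seeing the data. At resolution 0.5 no monocyte class formed, and the Mmp12 Arg1 cluster was not redrawn. No paired analysis was possible because each group is 1 library. Depth limits neutrophil, dendritic and endothelial values, where 15, 13 and 21 of the 28 genes passed 50 UMIs.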
